A study of Homo sapiens with 18 samples.

Results

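MIR223HG (ENSG00000274536) is a long noncoding RNA gene, also called linc-223, whose transcript carries the hairpin of the microRNA miR-223. It was followed as 1 gene of 60609 gene identifiers in the files, and 20920 of these, MIR223HG among them, had enough counts to be tested. It was chosen by its counts and TPM in these libraries, which earlier results placed among the largest falls after treatment, so its own levels and changes are given as a description without a test. All libraries were made from cells of the human line OCI-AML1, established from acute myeloid leukaemia and wild type by its label. Cells received DMSO (the solvent control), AML874 or SEL120-34A, and poly(A)-selected RNA was sequenced at 8 h and at 24 h, giving 6 groups of 3 libraries. SEL120-34A blocks the Mediator kinases CDK8 and CDK19, and the series title names inhibition of these kinases together with the BCL2 inhibitor venetoclax. What AML874 is made of is not stated, and the doses of both compounds are unknown here. The labels do not say whether the 3 libraries of a group came from separate cultures, so every p-value here measures the spread between these libraries, which may be technical.

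A microRNA of this kind starts as part of a long transcript made by RNA polymerase II. The nuclear enzyme DROSHA with its partner DGCR8 cuts out the hairpin, DICER1 trims it to a short duplex, and an Argonaute protein keeps 1 strand and is guided by it to matching sites in the 3′ UTRs of messenger RNAs. miR-223 is abundant in granulocytes and monocytes and rises as myeloid precursors mature. Its locus is activated by the myeloid factors C/EBP and PU.1, while NFIA, E2F1 and the leukaemia fusion protein of RUNX1 with RUNX1T1 are described as repressors of it. The mature microRNA has no polyadenylated tail, so these libraries read the host transcript and not miR-223 itself.

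The hairpin shows what the host transcript carries and is printed from RefSeq (GRCh38.p14, chrX:66018870-66018979, plus strand), with both mature arms in capitals.
MIR223 hairpin: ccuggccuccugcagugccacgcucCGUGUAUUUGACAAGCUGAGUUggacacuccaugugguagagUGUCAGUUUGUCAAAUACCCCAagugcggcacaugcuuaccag
The arms follow with their seeds, bases 2 to 8, in capitals, because the seed sets which messages are bound. They lie at chrX:66018895-66018916 and chrX:66018937-66018958.
hsa-miR-223-5p: cGUGUAUUugacaagcugaguu
hsa-miR-223-3p: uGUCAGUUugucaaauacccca
Of 2370 mature human microRNAs in the RefSeq table, 1 had the seed GUCAGUU, namely miR-223-3p itself. In GENCODE 29 the host gene spans chrX:66015461-66020422 on the plus strand (4962 bases, type antisense). Its 2 transcripts there share a first exon of 91 bases and a last exon of 1599 bases, and 1 of them has a middle exon of 125 bases. The hairpin starts at base 47 of the last exon and is exonic in both.

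A message that pairs with the miR-223-3p seed holds AACTGAC, read on the strand of the message. A match followed by A is the stronger 8-base form. A list of 29 genes described as miR-223 targets was followed, and 28 of them had a 3′ UTR in GENCODE 29 in the transcript with the longest coding sequence. Of those, 16 held at least 1 match and 12 an 8-base match. The sites of 7 genes whose levels are described further on are printed from GENCODE 29 transcripts, 5′ to 3′, with the match in capitals, including its A where there is one.
MEF2C, chr5:88721360-88721382, minus strand: gcaatctattgggtcAACTGACA
LMO2, chr11:33859104-33859126, minus strand: cagcccatccatagtAACTGACA
SEPTIN6, chrX:119618694-119618716, minus strand: cgaggttcctattttAACTGACA
FBXW7, chr4:152322684-152322706, minus strand: gagatgacaaaccatAACTGACA
IGF1R, chr15:98957651-98957673, plus strand: cctgcccaaacccttAACTGACA
SP3, chr2:173909495-173909517, minus strand: atttttattatgcatAACTGACA
NLRP3, chr1:247448895-247448917, plus strand: cgctatctttctattAACTGACc
FBXW7 held 3 such 8-base matches, SP3 held 2, MEF2C 1 beside a shorter one, and NLRP3 only the 7-base form. A match is a description of the letters and not evidence of binding.

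Each library held 98975944 to 142496541 reads counted in genes. Of 10 markers of acute myeloid leukaemia cells, 8 averaged at least 1 TPM over the 18 libraries. TPM is the deposited level scaled for transcript length and for the size of the library. The summed level of the 10 markers ran from 571 to 884 TPM and was lowest in the AML874 libraries at 24 h (571 to 576). Of 10 erythroid and megakaryocyte markers none averaged 1 TPM over the 18 libraries, and HBB, HBA1, HBA2, ALAS2 and PF4 were at 0. The lymphoid markers CD3G and MS4A1 and the endothelial marker CDH5 were also at 0, and among the lymphoid and stromal lists only NKG7 and PECAM1 averaged at least 1 TPM. In bulk RNA, fewer cells that express a gene and less of its RNA in each cell cannot be told apart, which applies to every level given here.

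MIR223HG was read at 969 to 6793 counts per library. With DMSO at 8 h its counts were 4871, 6674 and 5284, or 50.7, 50.3 and 47.7 CPM (counts relative to the library total after TMM scaling). With AML874 at 8 h they were 1503, 1398 and 1214, or 10.7, 11.3 and 11.6 CPM. With SEL120-34A at 8 h they were 1154, 1039 and 969, or 9.25, 9.17 and 8.89 CPM. All 6 treated libraries at 8 h lay far below the 3 with DMSO, and the 2 compounds did not overlap, with SEL120-34A the lower. With DMSO at 24 h the counts were 6693, 6771 and 6793, or 49.0, 50.4 and 51.5 CPM. With AML874 at 24 h they were 2698, 2399 and 2272, or 20.5, 20.5 and 19.3 CPM. With SEL120-34A at 24 h they were 2662, 2339 and 3040, or 21.8, 23.5 and 21.4 CPM. The treated libraries at 24 h were again all below DMSO but all above the treated libraries at 8 h, and here SEL120-34A was the higher of the 2 compounds. Counting error alone is 1.21 to 3.21% of a value at these counts, as 1 SD.

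**Figure D1:**
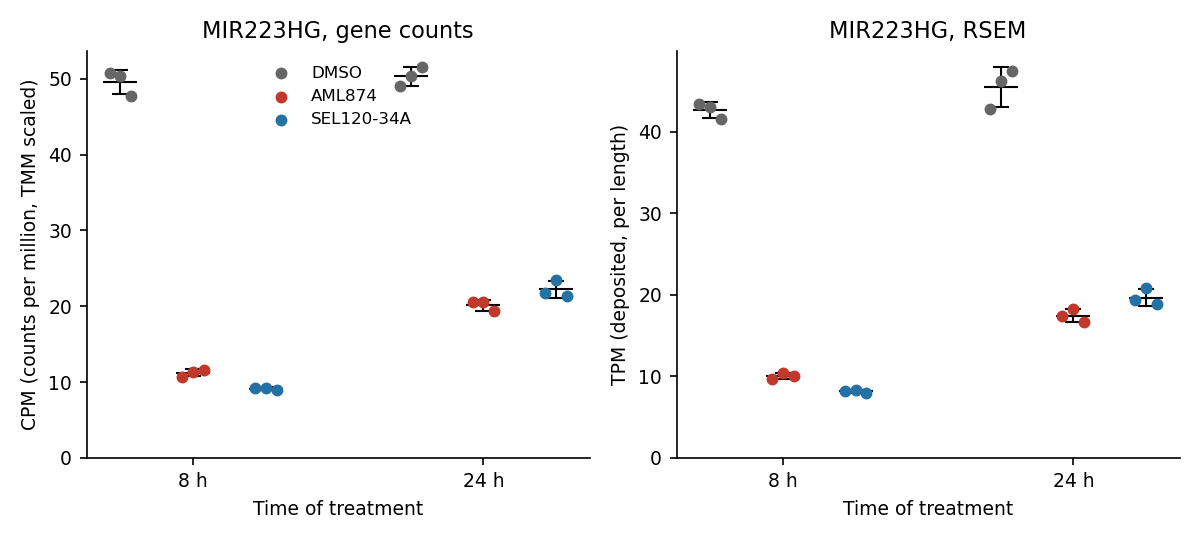
MIR223HG in each of the 18 libraries, as CPM from the gene counts (left) and as the deposited TPM (right). Points are libraries, and bars are the mean and SD of 3. The DMSO groups stand near 50 CPM (means 49.6 and 50.3), the treated groups near 10 CPM at 8 h (11.2 and 9.1) and near 20 CPM at 24 h (20.1 and 22.2).

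Means were at 8 h 49.6 ± 1.64 CPM for DMSO, 11.2 ± 0.495 CPM for AML874 and 9.1 ± 0.19 CPM for SEL120-34A (SD, n = 3). At 24 h they were 50.3 ± 1.29, 20.1 ± 0.668 and 22.2 ± 1.09 CPM. Against DMSO of the same time this left 22.6% (AML874) and 18.4% (SEL120-34A) at 8 h, and 39.9% and 44.2% at 24 h. The fitted log2 fold changes from DMSO at 8 h were -2.15 (SE 0.04) with AML874 and -2.44 (SE 0.04) with SEL120-34A. At 24 h they were -1.32 (SE 0.04) and -1.18 (SE 0.04). Both comparisons at a time share the 3 DMSO libraries, so their nearness is no independent support. Among 12967 tested genes with a mean of at least 1 TPM, counted from the most negative change, MIR223HG stood at 8 h at place 3 for AML874 and place 2 for SEL120-34A, and at places 22 and 17 at 24 h. Among all 20920 tested genes, with those of low level included, its places were 14 and 5 at 8 h and 110 and 146 at 24 h. Over 26 other ways of processing the counts, the 8 h changes ran from -2.19 to -2.1 for AML874 and from -2.49 to -2.38 for SEL120-34A.

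In order of level the groups ran DMSO at 24 h, DMSO at 8 h, SEL120-34A at 24 h, AML874 at 24 h, AML874 at 8 h and SEL120-34A at 8 h. The 2 DMSO groups overlapped, and their difference of 0.699 CPM was within the SD of 1.64. Every other pair of neighbours in that order was apart in all libraries. The 2 compounds changed places between the times. AML874 minus SEL120-34A was 0.30 (SE 0.05) on the log2 scale at 8 h and -0.14 (SE 0.04) at 24 h, at doses that are not given. From 8 h to 24 h the difference from DMSO became smaller by 0.83 (SE 0.06) with AML874 and by 1.27 (SE 0.06) with SEL120-34A on the log2 scale.

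Per length, MIR223HG at 8 h was at 42.7 ± 0.954 TPM for DMSO, 10.1 ± 0.375 TPM for AML874 and 8.16 ± 0.206 TPM for SEL120-34A (SD, n = 3). At 24 h it was at 45.5 ± 2.46, 17.4 ± 0.79 and 19.7 ± 1.04 TPM. By mean TPM it ranked 3504 and 3282 among all genes in the DMSO groups at 8 h and 24 h. At 8 h it ranked 8439 under AML874 and 9038 under SEL120-34A, and 6556 and 6230 at 24 h. The opposite strand of the gene held 1 to 9 counts in a library. The separate entry for the hairpin, MIR223, was listed at 0 in every library in both kinds of file. The hairpin lies inside the last exon of MIR223HG on the same strand. Reads over it overlap both entries, so this value does not show that hairpin sequence was absent. The RSEM estimates for MIR223HG were 1.023 to 1.056 times the gene counts.

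The other genes named as microRNA hosts moved in both directions. Beside MIR223HG the files held 83 genes with a symbol of the form MIR...HG, and 38 were tested. In the comparison of AML874 with DMSO at 8 h, 39.6% of all tested genes passed an adjusted p under 0.05 in the quasi-likelihood test of edgeR with Benjamini-Hochberg adjustment, 19.7% higher and 19.9% lower. With SEL120-34A at 8 h the shares were 45.1%, 22.4% and 22.6%. At 24 h they were 46.8%, 23.1% and 23.7% with AML874, and 37.7%, 19.1% and 18.6% with SEL120-34A. When libraries were scaled by their totals alone, rises made up 63.5% of the calls with AML874 at 8 h and 66.5% with SEL120-34A, against 49.8% for both with TMM. Of the 38 host genes, 8 rose and 9 fell with AML874 at 8 h, and 7 rose and 10 fell with SEL120-34A. At 24 h, 8 rose and 12 fell with AML874, and 6 rose and 14 fell with SEL120-34A. Their median log2 change lay between -0.04 and 0.05 in the 4 comparisons, beside -0.001 to 0.005 for all tested genes.

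MIR223HG was the most abundant of the 84 host genes in both DMSO groups by mean TPM. It stood at place 7 with AML874 and place 8 with SEL120-34A at 8 h, and at places 5 and 2 at 24 h. MIR142HG, the host of another microRNA of blood cells, was second to it with DMSO at 39.4 TPM at 8 h and 37.4 TPM at 24 h, and was first in every treated group. MIR142HG itself fell, by 0.62 (SE 0.08, edgeR adjusted p 9.9e-06) with AML874 and by 0.60 (SE 0.08, adjusted p 1.17e-05) with SEL120-34A on the log2 scale at 8 h. At 24 h it fell by 0.57 (SE 0.08) with SEL120-34A and by 0.21 (SE 0.08, edgeR adjusted p 0.0317) with AML874. Its fall with AML874 was smaller at 24 h than at 8 h by 0.41 (SE 0.11, edgeR adjusted p 0.0125). The 24 h AML874 call was lost in 6 of 26 other settings, which were the filter of 1 CPM and the omission of DMSO library 2 or 3 or of any 1 of the 3 AML874 libraries at 24 h (p from 3.87e-06 to 0.132 over all 26, change from -0.31 to -0.13).

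Hosts that fell in all 4 comparisons with DMSO also included MIR23AHG, with log2 changes of -0.72 and -0.71 at 8 h and -0.86 and -0.96 at 24 h (AML874, then SEL120-34A). MIR17HG, host of a cluster that promotes proliferation, changed by -0.55 and -0.67 at 8 h and by -0.63 and -0.31 at 24 h. MIR1915HG changed by -0.65 and -0.88, and then by -0.50 and -0.44. The largest of these falls, 0.96, was smaller than any of the 4 changes of MIR223HG, a gene chosen with its large falls known. MIR762HG rose by 0.62 and 0.61 at 8 h and by 0.90 and 0.87 at 24 h. With counts from both strands its 8 h values were 0.21 and 0.10 and no longer passed (edgeR adjusted p 0.345 and 0.678, against lows over the other settings of 6.82e-09 and 9.08e-09).

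**Figure D2:**
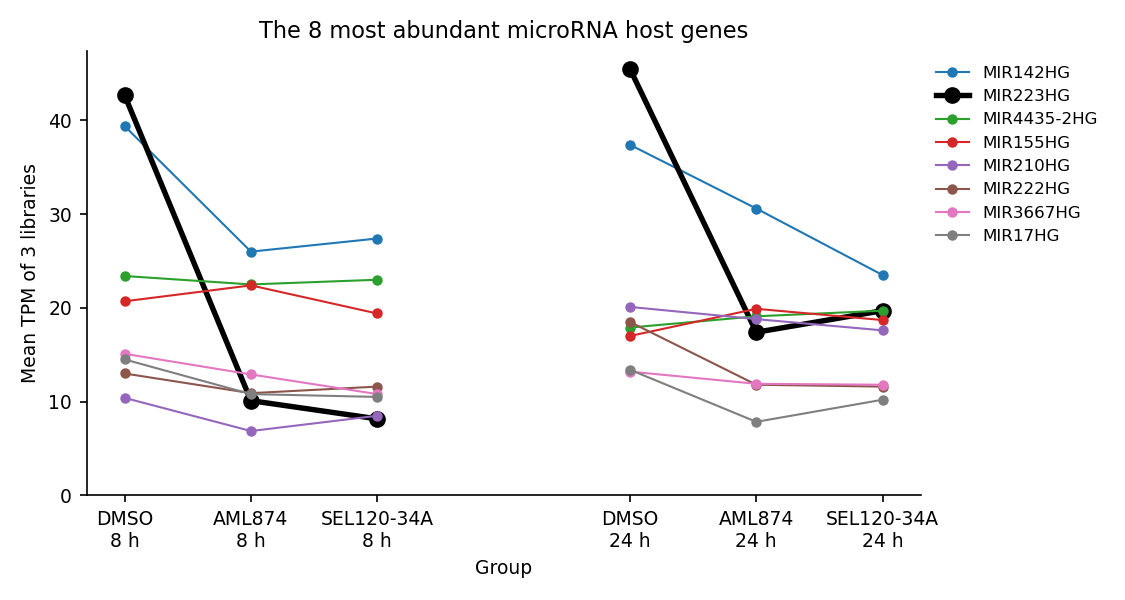
Mean TPM of 3 libraries in each group for the 8 microRNA host genes with the highest mean over all 18 libraries. MIR223HG (black) is first with DMSO at 42.7 and 45.5 TPM and crosses below MIR142HG, MIR4435-2HG and MIR155HG in both compounds at 8 h.

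The transcription factors that act on the miR-223 locus came next. A list of 9 was followed, of which RUNX1T1 was at 0 in every library and 8 were tested. With AML874 at 8 h, 6 of the 8 fell and none rose, and with SEL120-34A all 8 fell. At 24 h, 7 fell and none rose with AML874, while 6 fell and 1 rose with SEL120-34A. In these 4 comparisons 75%, 100%, 87.5% and 75% of the factors fell, beside 19.9%, 22.6%, 23.7% and 18.6% of all tested genes. Rises made up 19.7%, 22.4%, 23.1% and 19.1% of all tested genes. Among tested genes with a 3′ UTR, a group closer to these factors, 26.2 to 34.2% fell and 22.2 to 25.7% rose. The median log2 change of the 8 factors was -0.27, -0.26, -0.33 and -0.19 in the same comparisons, again beside -0.001 to 0.005 over all tested genes. Between the DMSO groups, where 42.5% of all genes passed (19.8% higher at 24 h, 22.7% lower), 2 of the 8 rose and 5 fell while MIR223HG differed by 0.02 (SE 0.04). The activators and the repressors moved mostly the same way, with log2 changes closer to 0 than those of MIR223HG in every comparison with DMSO. The activity of these factors was not measured, and a link between them and MIR223HG was not tested.

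SPI1, which encodes PU.1, fell from 248, 249 and 242 CPM with DMSO at 8 h to 206, 214 and 216 with AML874 and 211, 197 and 214 with SEL120-34A. At 24 h it fell from 214, 206 and 201 CPM to 177, 166 and 171 with AML874 and 191, 182 and 180 with SEL120-34A. Treated and DMSO libraries did not overlap at either time, and the log2 changes were -0.22, -0.25, -0.28 and -0.17 (SE 0.03 each, edgeR adjusted p at most 3.23e-05). RUNX1, a factor needed for blood cell formation, also fell in all 4 comparisons, by 0.26 and 0.31 at 8 h and by 0.17 and 0.13 at 24 h (SE 0.02 each).

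Among the C/EBP factors, CEBPA, which drives granulocyte formation, fell by 0.35 (SE 0.06) and 0.45 (SE 0.06) with AML874 at 8 h and 24 h. With SEL120-34A it fell by 0.16 at 8 h (SE 0.06, edgeR adjusted p 0.0355), and its value at 24 h was -0.14 (adjusted p 0.0719). The 8 h call was lost with library totals and without DMSO library 1, DMSO library 2 or SEL120-34A library 2 at 8 h (p from 0.00252 to 0.168 over 26 settings), and the 24 h value passed in 10 of 26. CEBPB and CEBPD, which respond to inflammatory signals, had their largest falls with AML874 at 24 h, by 0.50 and 0.56 (SE 0.04 each). With SEL120-34A at 24 h they fell by 0.35 and 0.21, and at 8 h by 0.18 each. With AML874 at 8 h CEBPD fell by 0.29, and CEBPB had a value of -0.08 that did not pass (edgeR adjusted p 0.116).

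CEBPE, which acts late in granulocyte maturation, was the 1 factor that rose. It was at 49.4, 46.1 and 44.9 CPM with DMSO at 8 h, at 34.7, 34.5 and 37.0 with AML874 and at 38.2, 35.9 and 38.5 with SEL120-34A. The 24 h values were 40.4, 37.8 and 37.8 CPM with DMSO, 37.8, 34.9 and 36.3 with AML874, and 53.3, 51.8 and 50.2 with SEL120-34A. The SEL120-34A libraries thus lay below DMSO at 8 h (log2 change -0.32, SE 0.04, edgeR adjusted p 3.54e-08) and above it at 24 h (0.42, SE 0.04, adjusted p 1.11e-10). With AML874 the change was -0.40 at 8 h and -0.09 at 24 h (edgeR adjusted p 0.0596, with a range from 0.0256 to 0.286). That value passed in 14 of 26 other settings, the fit with the replicate number as a block among them (p 0.0414).

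The described repressors fell as well. E2F1, a cell cycle factor, was at 64.1, 72.1 and 67.5 CPM with DMSO at 8 h, at 47.4, 49.9 and 51.7 with AML874 and at 47.8, 42.8 and 46.1 with SEL120-34A, without overlap. Its log2 changes were -0.45 and -0.58 at 8 h and -0.38 and -0.32 at 24 h (SE 0.04 each, edgeR adjusted p at most 1.23e-07). NFIA changed by -0.26, -0.25 and -0.26 in the 3 comparisons other than AML874 at 8 h, where its value was -0.08 and did not pass (edgeR adjusted p 0.202). NFIA was the least abundant of the 8 tested factors, at group means of 2.43 to 3.66 TPM, while SPI1 was at 178 to 254 TPM.

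**Figure D3:**
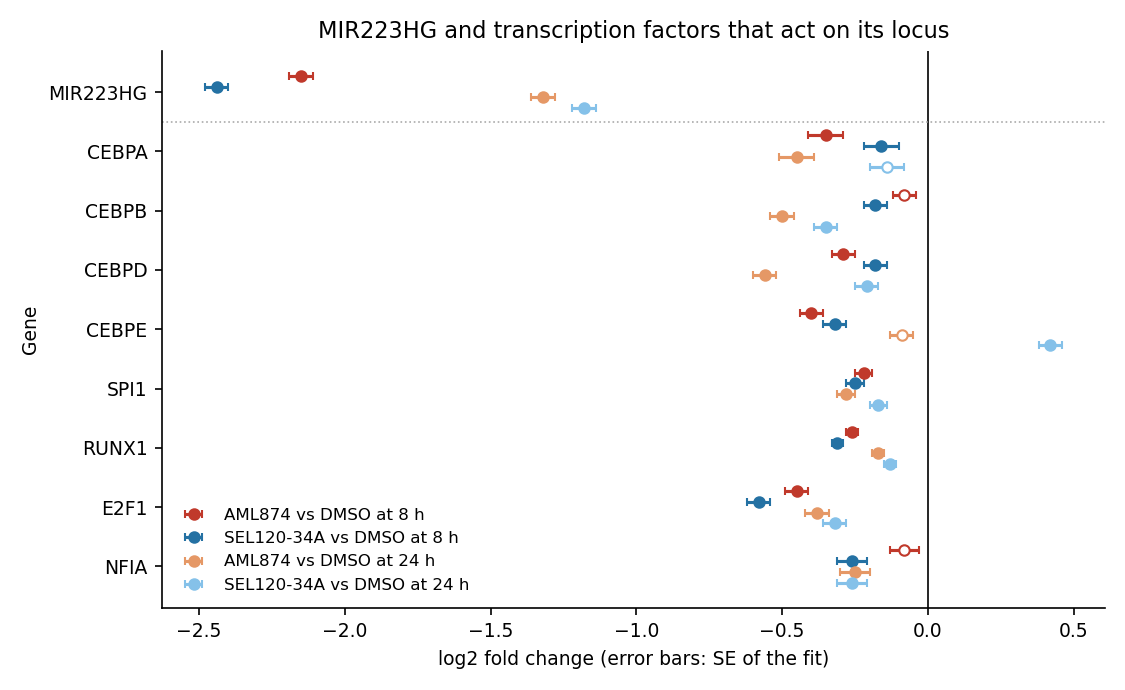
Log2 fold change from DMSO of MIR223HG (above the dotted line, a description) and of the 8 tested factors, with the SE of the fit. Open circles did not pass an adjusted p under 0.05. MIR223HG lies between -2.44 and -1.18, and the factors between -0.58 and 0.42.

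Whether the effect on a factor changed with time was tested for each compound, as the difference from DMSO at 24 h minus that at 8 h. Of all tested genes 23.6% passed with AML874 (11.1% up, 12.5% down) and 27.3% with SEL120-34A (14.2% up, 13.0% down), and of the 8 factors 4 passed with each. MIR223HG itself moved back towards DMSO with both compounds, by 0.83 and 1.27 as given above. With SEL120-34A, CEBPE (0.74, SE 0.06), E2F1 (0.25, SE 0.06) and RUNX1 (0.18, SE 0.03) moved up relative to DMSO, and CEBPB moved further down (-0.17, SE 0.06). With AML874, CEBPE moved up (0.31, SE 0.06) while CEBPB (-0.42, SE 0.06), CEBPD (-0.27, SE 0.06) and NFIA (-0.18, SE 0.07) moved further down. RUNX1 had a value of 0.09 (SE 0.03) with AML874 that passed in 13 of 26 other settings only (edgeR adjusted p 0.05, with a range from 0.00827 to 0.358). The NFIA call was lost in 19 of 26 other settings (edgeR adjusted p 0.0472, with a range from 0.0103 to 0.184), the fit with the replicate number as a block among them (p 0.057). The CEBPB call with SEL120-34A was lost in 6, without DMSO library 3 or SEL120-34A library 1 at 8 h and without DMSO library 1 or 2 or SEL120-34A library 2 or 3 at 24 h (p 0.0337, from 0.00121 to 0.116).

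Genes of the machinery that turns the host transcript into miR-223 were followed next. Of 21 genes for microRNA processing and silencing, 20 were tested, and LIN28A was not. With AML874 4 rose and 8 fell at 8 h, and 1 rose and 16 fell at 24 h. With SEL120-34A 2 rose and 11 fell at 8 h, and 2 rose and 10 fell at 24 h. Of all tested genes, 19.7% rose and 19.9% fell with AML874 at 8 h and 23.1% and 23.7% at 24 h, against 20% and 40% and then 5% and 80% of these 20. With SEL120-34A the shares over all genes were 22.4% and 22.6% at 8 h and 19.1% and 18.6% at 24 h, against 10% and 55% and then 10% and 50%. Among tested genes with a 3′ UTR, a group closer to these 20, 26.2 to 34.2% fell and 22.2 to 25.7% rose in the 4 comparisons. The median log2 change of the 20 genes was between -0.09 and -0.05.

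DROSHA and DGCR8, the 2 parts of the enzyme that cuts the hairpin from MIR223HG, moved in opposite directions. DROSHA was at 93.5, 92.1 and 90.5 CPM with DMSO at 8 h, and the treated libraries at that time were at 110.0 to 117 CPM, without overlap. It rose by 0.27 and 0.31 at 8 h and by 0.24 and 0.15 at 24 h (SE 0.03 each, edgeR adjusted p at most 8.34e-06). DGCR8 fell by 0.29 and 0.28 at 8 h and by 0.22 and 0.12 at 24 h (SE 0.04 each, edgeR adjusted p at most 0.011). The 24 h call with SEL120-34A was lost without SEL120-34A library 2 (p 0.0729, and from 0.0017 upwards in the others). Of the Argonaute genes, AGO4 fell by 0.38, 0.21, 0.26 and 0.15, and AGO2, the one that can cut its target, by 0.11, 0.22, 0.20 and 0.14, in the order AML874 and SEL120-34A at 8 h, then at 24 h.

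Messages described as miR-223 targets were followed because such messages can rise when the microRNA is scarce. Of the 28 tested, 4 rose and 12 fell with AML874 at 8 h, and 5 rose and 14 fell with SEL120-34A. Among the same genes at 24 h, 4 rose and 16 fell with AML874, and 5 rose and 15 fell with SEL120-34A. Their median log2 change was -0.08, -0.09, -0.13 and -0.08 in the 4 comparisons, and 42.9 to 57.1% of them fell while 14.3 to 17.9% rose. Over all tested genes 18.6 to 23.7% fell and 19.1 to 23.1% rose in the same comparisons. Among tested genes with a 3′ UTR, a group closer to these targets, 26.2 to 34.2% fell and 22.2 to 25.7% rose. Between the DMSO groups, 18 of the 28 targets rose and 6 fell with time, with a median of 0.16. These were 64.3% and 21.4% of the targets, beside 19.8% and 22.7% of all tested genes. MIR223HG differed there by 0.02 (SE 0.04), and a link between it and the targets was not tested. NFIA, E2F1 and CEBPB are in this list as well as among the factors.

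MEF2C, a factor of myeloid progenitors and a known target, was called higher in all 4 comparisons. It was at 52.4, 49.5 and 51.6 CPM with DMSO at 8 h, at 71.3, 68.4 and 66.3 with AML874 and at 81.8, 84.2 and 82.0 with SEL120-34A. The 24 h values were 60.6, 60.3 and 58.6 CPM with DMSO, at 82.5, 83.4 and 82.5 with AML874 and at 69.5, 74.8 and 78.8 with SEL120-34A. The 3 groups did not overlap at either time, and the order of the compounds reversed between the times. The log2 changes were 0.43, 0.69, 0.47 and 0.31 (SE 0.03 each, edgeR adjusted p at most 3.61e-09), with AML874 below SEL120-34A by 0.27 at 8 h and above it by 0.15 at 24 h (adjusted p 1.77e-07 and 0.00109). Between the compounds 31.2% of all genes passed at 8 h (16.0% higher with AML874, 15.2% lower) and 19.6% at 24 h (8.0% higher, 11.6% lower).

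The order of the compounds for MEF2C was the opposite of that for MIR223HG at each time, since MIR223HG was higher with AML874 at 8 h and lower at 24 h. With SEL120-34A the rise of MEF2C was smaller at 24 h than at 8 h by 0.38 (SE 0.05, edgeR adjusted p 2.53e-07), and with AML874 the difference between the times was 0.04 (SE 0.05, adjusted p 0.595). Between the DMSO groups MEF2C rose with time by 0.23 (SE 0.03, edgeR adjusted p 1.88e-06), while MIR223HG differed by 0.02 (SE 0.04). A link between MEF2C and MIR223HG was not tested.

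For 4 other targets that hold an 8-base match the effect differed between the times with both compounds. Their edgeR adjusted p for late minus early was at most 0.0311. In that test 5 of the 28 targets moved up and 7 down with AML874, beside 11.1% and 12.5% of all tested genes. With SEL120-34A 12 moved up and 6 down, beside 14.2% and 13.0%. Many targets thus passed, in both directions, and these 4 do not stand for the list. LMO2, a factor of blood stem cells, rose by 0.40 and 0.33 at 24 h (SE 0.03 each) and had values of 0.05 and 0.04 at 8 h that did not pass, except when libraries were scaled by totals alone (0.09 and 0.11, edgeR adjusted p 0.0119 and 0.00264, with highs of 0.819 and 0.959 over 26 settings). SEPTIN6, a cytoskeletal gene, rose by 0.47 and 0.38 at 24 h (SE 0.04 each) and had values of -0.08 and -0.02 at 8 h (the first passed in 7 of 26 other settings, p from 0.0249 to 0.539). FBXW7, which marks cyclin E and MYC for destruction, rose by 0.17 and 0.20 at 8 h (SE 0.03 each), and its values at 24 h were -0.01 and 0.05. RHOB, a small GTPase of the cytoskeleton, rose by 0.43 and 0.19 at 24 h and, with AML874, by 0.25 at 8 h (SE 0.04 each), and its value with SEL120-34A at 8 h was -0.06 (SE 0.05).

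Several other targets fell. IGF1R, a growth factor receptor, fell by 0.21 and 0.19 at 8 h and by 0.17 with AML874 at 24 h, with a value of -0.01 for SEL120-34A. SP3, a transcription factor with 2 matches, fell by 0.25 and 0.28 at 8 h and by 0.22 and 0.08 at 24 h. NLRP3, the inflammasome sensor whose site is printed above, fell by 0.24, 0.29, 0.25 and 0.18 (SE 0.03 each). STMN1, a microtubule regulator with no match in the transcript used, fell by 0.36 and 0.16 at 8 h and by 0.16 with AML874 at 24 h. Its value with SEL120-34A at 24 h was -0.05 (edgeR adjusted p 0.0432), a call lost in 8 of 26 settings, among them the omission of DMSO library 1 or of any 1 of the 3 SEL120-34A libraries (p from 0.00288 to 0.126).

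The same question was put to all genes with a seed match. Among 13033 tested genes with a 3′ UTR, 1067 (8.19%) held at least 1 copy of AACTGAC there, and 397 (3.05%) held AACTGACA. With AML874 at 8 h the median log2 change was -0.014 for genes with any match, -0.02 for those with an 8-base match and -0.011 for the 11966 without. With SEL120-34A at 8 h these medians were -0.029, -0.034 and -0.009. At 24 h they were -0.056, -0.068 and -0.028 with AML874, and -0.02, -0.019 and -0.01 with SEL120-34A. In each comparison the medians of genes with a match lay at or below that of genes without. These medians are a description, without a test.

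The shares called differed most with AML874 at 24 h. With AML874 at 8 h, 242 (22.7%) of the genes with a match rose and 309 fell, beside 23.0% and 27.3% of genes without. With SEL120-34A at 8 h the shares were 24.0% and 31.8%, beside 25.9% and 29.9%. With AML874 at 24 h they were 23.6% and 39.9%, beside 24.5% and 33.7%, and of genes with an 8-base match 22.4% rose and 40.6% fell. With SEL120-34A at 24 h they were 22.3% and 29.2%, beside 22.2% and 25.9%. Genes with a match had longer 3′ UTRs, with a median of 2820 bases against 858, and the part of UTR length in these differences was not tested. Mature miR-223 was not measured, so its own level beside these genes is not known from these libraries.

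**Figure D4:**
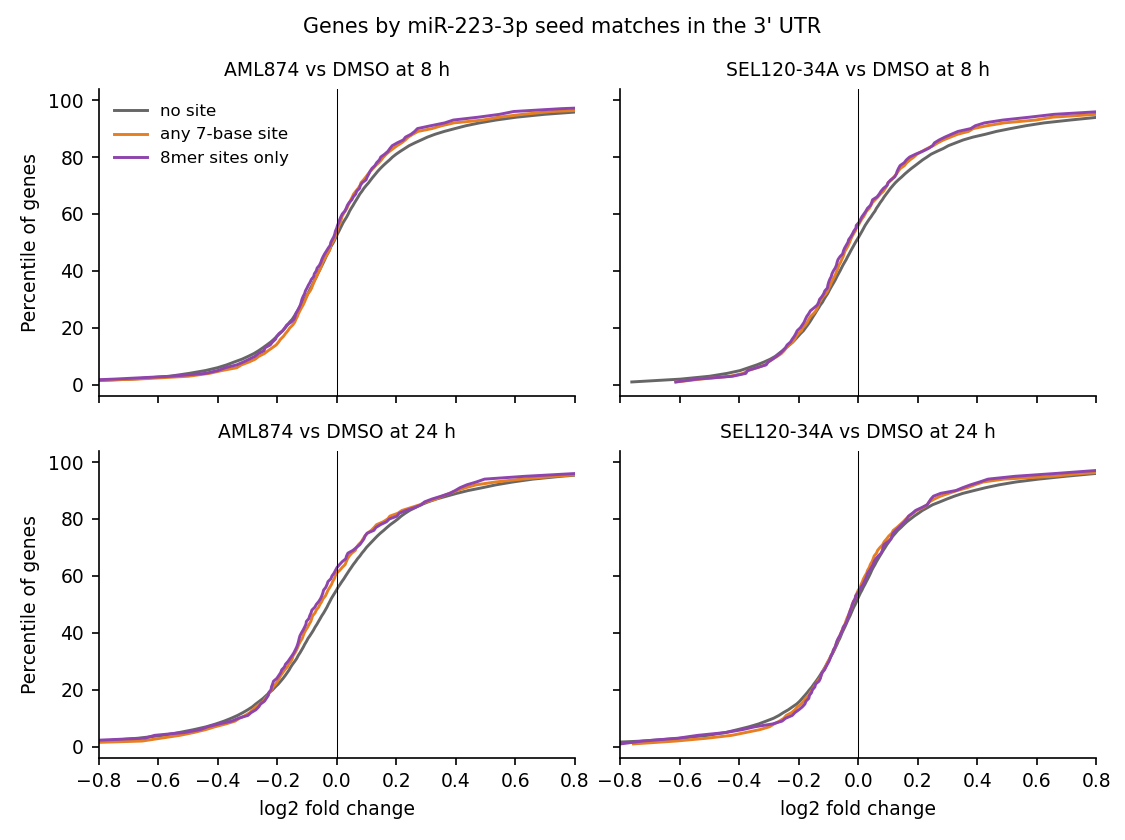
Percentile of genes against log2 fold change, for genes without a miR-223-3p seed match in the 3′ UTR (grey), with any match (orange) and with an 8-base match (purple). A curve further left means lower values. The curves cross 0 close together, with medians from -0.068 to -0.009.

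Genes expressed along granulocyte and monocyte maturation were followed because miR-223 rises as myeloid precursors mature. A fall of a gene in this list was not read as a loss of maturation. Of 30 listed genes 19 were tested. Of these, 3 rose and 6 fell with AML874 at 8 h, and 5 rose and 8 fell at 24 h. With SEL120-34A 4 rose and 9 fell at 8 h, and 4 rose and 9 fell at 24 h. Of the 19, 31.6 to 47.4% fell and 15.8 to 26.3% rose, beside 18.6 to 23.7% and 19.1 to 23.1% of all tested genes. MPO, the granule peroxidase, fell in all 4 comparisons, by 0.98 and 0.85 at 8 h and by 2.87 and 1.53 at 24 h (SE 0.06 to 0.07). AZU1, another granule protein, fell by 0.56 and 0.81, and then by 1.48 and 1.39. For both genes the fall was larger at 24 h than at 8 h, with late minus early differences of -1.89 and -0.67 for MPO and of -0.92 and -0.59 for AZU1 (edgeR adjusted p at most 0.0298). MIR223HG, in contrast, was nearer to DMSO at 24 h.

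The chemokine receptor CXCR2 of neutrophils fell by 0.37 with each compound at 8 h and by 0.31 and 0.18 at 24 h. The integrin ITGAX fell by 0.95 and 0.57 at 8 h and by 1.26 and 1.11 at 24 h. The macrophage gene MPEG1, whose product forms pores in engulfed microbes, rose by 1.38 and 1.06 at 8 h and by 2.44 and 1.89 at 24 h. CYBB, the core of the phagocyte oxidase, rose by 0.49 and 0.67, and then by 0.53 and 1.07, and the matrix proteoglycan gene VCAN by 0.81 and 1.19, and then by 1.39 and 1.43. Members of the same kinds also went the other way. The granule gene CTSG rose by 0.42 and 0.41 at 24 h, after a fall of 0.21 with SEL120-34A at 8 h. NCF1, also of the phagocyte oxidase, fell by 0.70 and 0.44 at 8 h and by 0.21 with SEL120-34A at 24 h. CSF1R changed by -0.25 and 0.39 at 8 h and by -0.98 and -0.70 at 24 h. LYZ fell by 0.58 and 0.34 at 24 h. Genes of this list thus moved both ways, within granule genes and within phagocyte genes, beside the lower MIR223HG.

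The genes around MIR223HG on chromosome X were described one by one. Within 1 Mb of it GENCODE 29 lists 27 genes, 7 of them protein coding, and 8 were tested. With AML874 3 rose at each time and none fell. With SEL120-34A 3 rose at 8 h, and 3 rose and 1 fell at 24 h. Rises were 37.5% of the 8 in each comparison, beside 19.7% and 22.4% of all tested genes at 8 h and 23.1% and 19.1% at 24 h (AML874, then SEL120-34A). Falls were 0% of the 8, and 12.5% with SEL120-34A at 24 h. Of all tested genes 19.9% and 22.6% fell at 8 h and 23.7% and 18.6% at 24 h. In either direction 39.6% and 45.1% of all tested genes passed at 8 h, and 46.8% and 37.7% at 24 h. No neighbour changed downwards by more than 0.26 where it was called.

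The nearest coding gene, VSIG4, a complement receptor of macrophages, lies 1316 bases downstream on the minus strand. It had 1, 1 and 0 counts with DMSO at 8 h, 11, 12 and 20 with AML874 and 10, 7 and 11 with SEL120-34A. The 24 h libraries had 3, 6 and 3 counts with DMSO, 14, 1 and 7 with AML874 and 6, 2 and 8 with SEL120-34A. It was called higher at 8 h with both compounds (edgeR adjusted p 0.000152 and 0.00138) and not at 24 h, but it never passed 0.17 TPM. With counts from both strands the SEL120-34A call at 8 h was lost (p 0.111, and 0.000637 at the lowest over 25 settings).

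EDA2R, a receptor of the tumour necrosis factor family, 575215 bases away, rose in all 4 comparisons. It was at 11.5, 12.2 and 11.7 CPM with DMSO at 8 h, at 17.9, 17.7 and 18.2 with AML874 and at 18.7 or above in all 3 with SEL120-34A, without overlap. Its log2 changes were 0.60 and 0.73 at 8 h and 0.22 and 0.24 at 24 h (SE 0.05 each, edgeR adjusted p at most 0.000278). MSN, which links the membrane to actin, lies 273530 bases away and was the most abundant neighbour. It rose by 0.33 with each compound at 24 h (SE 0.02), and its values at 8 h were 0.04 and -0.02 (0.08 with AML874 when libraries were scaled by totals alone, edgeR adjusted p 0.00119, against 0.644 at the highest over 26 settings). ZC3H12B rose with AML874 at 8 h by 0.31 and fell with SEL120-34A at 24 h by 0.26 (edgeR adjusted p 0.0133), a call lost without DMSO library 2 or SEL120-34A library 1 at 24 h (p from 0.00128 to 0.0956). LAS1L, a ribosome biogenesis gene, rose by 0.20 with SEL120-34A at 24 h and by 0.09 with AML874, the latter lost without DMSO library 1 or AML874 library 2 or 3 (edgeR adjusted p 0.0106, from 0.00104 to 0.062). ZC4H2 rose by 0.17 with SEL120-34A at 8 h, lost without DMSO library 2 or SEL120-34A library 1 (edgeR adjusted p 0.0179, from 0.00117 to 0.164), and ENSG00000237311 and RBMXP5 passed in none of the 4. Some values below 0 passed only in other settings. ZC4H2 with SEL120-34A at 24 h (-0.13) passed as lower in 13 of 26 (p from 0.0361 to 0.273). LAS1L at 8 h (-0.06 with each compound) passed as lower in 7 of 26 with each (p from 0.00736 to 0.729 and from 0.00783 to 0.935).

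**Figure D5:**
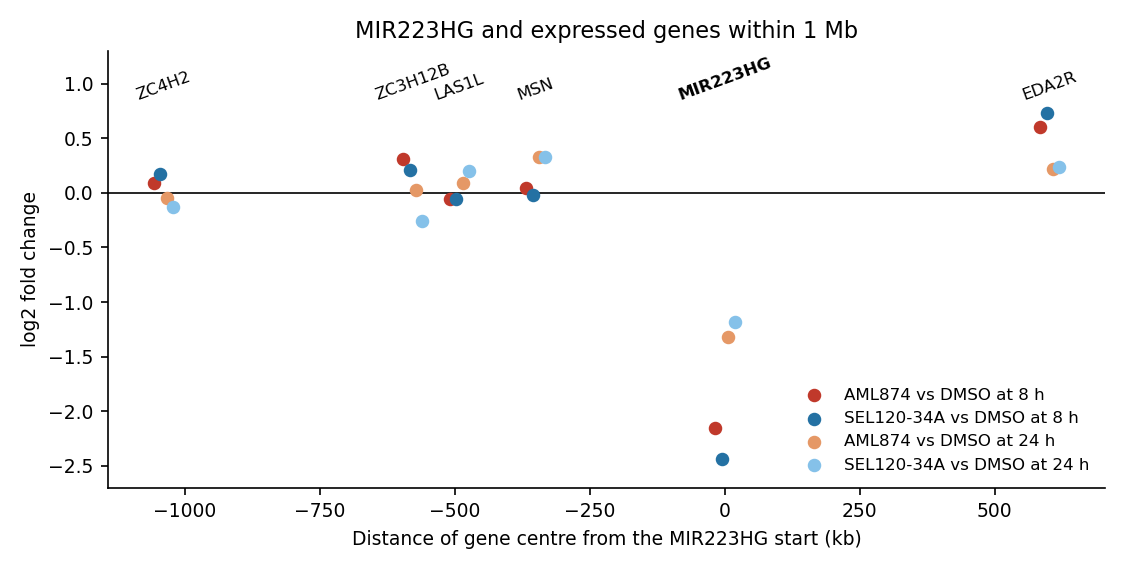
Log2 fold change from DMSO of MIR223HG and of the 5 neighbours that reach 1 TPM in at least 1 library, against the distance of each gene's centre from the start of MIR223HG. Points of 1 gene are spread sideways a little so that all 4 can be seen. MIR223HG lies at -2.44 to -1.18, and the neighbours lie between -0.26 and 0.73.

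Genes with a like pattern were ranked by the Pearson correlation of log2 CPM with MIR223HG over the 18 libraries, among 12966 genes with a mean of at least 1 TPM. The libraries share 6 groups, and most of each correlation is a difference between groups, so these values are a description. The highest was NANOS1, a regulator of messenger RNA translation, at 0.98. NANOS1 was at 10.4, 11.5 and 9.83 CPM with DMSO at 8 h, 5.12, 5.82 and 5.78 with AML874 and 5.25, 5.06 and 4.94 with SEL120-34A. NANOS1 at 24 h was at 12.2, 11.9 and 11.2 CPM with DMSO, 7.17, 6.78 and 7.13 with AML874 and 8.65, 8.16 and 8.05 with SEL120-34A. As for MIR223HG, it was low at 8 h and part way back at 24 h, with SEL120-34A the higher compound at 24 h.

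The next were an unnamed lincRNA (ENSG00000283633) and the splicing factor TRA2B, both at 0.974, and FBXO5, an inhibitor of a mitotic ubiquitin ligase, and LINC03053, both at 0.973. ARHGAP23 (0.972), SLC66A1 (0.971), KDM2B (0.971), CITED4 (0.97) and GPD2 (0.966) completed the 10 highest. Their changes were smaller than those of MIR223HG: LINC03053 had log2 changes of -1.01, -1.15, -0.99 and -0.72, and KDM2B of -0.18, -0.23, -0.09 and -0.11. After the group means were removed, the correlations of these 10 with MIR223HG lay between -0.24 and 0.45. In all, 161 genes were at 0.9 or above and 148 at -0.9 or below. The lowest were ENSG00000260948 (-0.986), LINC00963 (-0.98), AP3S2 (-0.979), TTC19 (-0.978) and ENSG00000267317 (-0.976). Of the factors, NFIA and E2F1 (0.8 each) and RUNX1 (0.77) were nearest to MIR223HG, and CEBPA (0.13) and CEBPB (0.12) were far from it.

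Other measures differed between the groups beside MIR223HG. The mean log2 CPM of 22 genes that respond to low oxygen was 5.49 to 6.15 with DMSO at 8 h, 5.27 to 5.34 with AML874 and 5.14 to 5.81 with SEL120-34A. At 24 h it was 6.18 to 6.44, 5.72 to 6.04 and 5.8 to 6.25. Its spread within a group was widest with DMSO and with SEL120-34A at 8 h. The mitochondrial share of counts was 5.97 to 6.22% with DMSO at 8 h, 6.54 to 6.74% with AML874 and 6.34 to 6.49% with SEL120-34A. At 24 h it was 6.11 to 6.18%, 7.74 to 8.16% and 6.34 to 6.82%. At both times the share in every treated library was above that in every DMSO library, beside the lower MIR223HG. The part of these measures in the changes of MIR223HG was not tested.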

How the data were processed

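Polyadenylated RNA of 18 libraries was sequenced by the authors, per the labels' protocols. STAR 2.7.1a, RSEM 1.3.2 and GRCh38 are named in the submitters' processing notes, and the annotation release is not given in the sources used here. The authors deposited read counts per gene in unstranded, forward and reverse columns, and RSEM expected counts and TPM. The reverse counts (forward counts were 6.267 to 6.663% of them) were used as deposited, without the 4 summary lines, which held 21.94 to 25.52% of reads. Genes were filtered with filterByExpr, scaled with TMM and modelled as 6 groups (12 residual degrees of freedom) with edgeR 4.0.16 (R 4.3.3), using its quasi-likelihood test in robust form. Calls had a Benjamini-Hochberg adjusted p under 0.05 over 20920 genes. RSEM counts were rounded for 1 alternative, and DESeq2 1.42.0 was another. On simulated data for AML874 against DMSO at 8 h with 20920 genes, 42, 50, 49 and 50 of 50 changes of 1.25-, 1.5-, 2- and 4-fold were recovered, with 13 false calls. Only these planted genes were changed, all at 1 CPM or more with DMSO at 8 h. That is far fewer than were called in the data, so the simulation does not cover low counts or such wide change. Positions and 3′ UTRs came from GENCODE 29. Named genes were MIR223HG, the tested factors and neighbours, up to 6 members per other list by p in each comparison with DMSO, 6 chosen targets, and the 10 most and 5 least alike genes. CTSG was named beside these. The gene and all lists were chosen with earlier results of these data known. Replicate numbers do not pair the libraries by label, but AML874 and DMSO libraries of the same number at 24 h deviated together (correlations 0.18 to 0.37). Figures were drawn with matplotlib 3.10.9 in Python 3.11.15.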

Additional observations from a re-analysis of the deposited data

Results flagged for a closer look

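MIR223HG was lower with SEL120-34A than with AML874 in every library at 8 h (AML874 minus SEL120-34A 0.30 on the log2 scale) and higher in every library at 24 h (-0.14). The change of order between the times was not tested, because the gene was chosen with its levels known.

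Some factors of the miR-223 locus responded differently at 24 h than at 8 h, by the edgeR test of the difference itself with Benjamini-Hochberg adjustment. With AML874 the difference from DMSO changed by -0.42 for CEBPB, -0.27 for CEBPD, 0.31 for CEBPE and -0.18 for NFIA on the log2 scale. With SEL120-34A it changed by -0.17 for CEBPB, 0.74 for CEBPE, 0.25 for E2F1 and 0.18 for RUNX1. The NFIA value was lost in 19 of 26 other settings (adjusted p 0.0472, from 0.0103 to 0.184), among them the replicate block (p 0.057), and the CEBPB value with SEL120-34A in 6 of 26 (adjusted p 0.0337, from 0.00121 to 0.116).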

How the results depend on the processing

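MIR223HG kept its direction against DMSO in all 26 alternatives. With library totals in place of TMM its change was -2.38 with SEL120-34A at 8 h, and its late minus early difference with that compound was 1.19, because this scaling shifts the median of all genes (0.066 at 8 h). Leaving out 1 library at a time gave -2.49 to -2.44 for SEL120-34A at 8 h, and 2 to 5 called neighbours there in place of 3. Of the 10 most alike genes, 4 were shared with a ranking by Spearman correlation, and 0 after group means were removed.

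For the genes open to naming, 7476 values were recomputed: 7244 kept their call, 97 lost it, 135 gained it and 0 reversed. The replicate block left MIR223HG at -2.15 and -2.44 at 8 h and at -1.32 and -1.18 at 24 h. It changed the calls with AML874 from 8287 to 8154 genes at 8 h and from 9799 to 9674 at 24 h, and 3 of 288 named values. Samples with the same number correlated at -0.52 to 0.37 in their deviations from the group means. All 3 exceeded 0.1 for AML874 with DMSO at 24 h, where each was closest to its own number, and in no other comparison, so the fits given carry no block. At these depths counting error is small beside most changes. Exceptions include VSIG4 and the neighbours ENSG00000237311 (18 to 44 counts per library) and RBMXP5 (27 to 62).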
